A study of Mus musculus with 16 samples.

Results

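Mediator and RNA polymerase II transcripts were followed in a SLAM-seq time course of mouse leukemia cells. Members were the genes whose symbol is Med and a number, with or without a final l, or Polr2 and a letter from a to m. Of 21177 genes in the deposited table, 43 matched, and 42 were kept, 29 of Mediator and 13 of RNA polymerase II. A gene was kept when its interval of highest read density reached a mean CPM (reads scaled to library size) of 1 over all libraries. Polr2k lay just inside this minimum with a mean CPM of 1.12, and Med12l lay just outside with 0.510. In all, 9628 genes passed the minimum. Rates and intervals are set against these genes, and tested slopes and levels against the 7411 genes tested.

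The cells were leukemia cells with bone marrow as the labelled tissue and C57BL/6 as the strain, of genotype WT or YBX1-/-. How the leukemia was raised, the animals' ages and the number of animals are not given in the sources used here. RNA in both genotypes was labelled with 50 µM 4-thiouridine (4sU) for 24 h and chased in medium holding 10 mM uridine, and polyA RNA was sequenced at 0, 0.5, 1, 3, 6, 12, 18 and 24 h of the chase. A 4sU base is read as C in place of T, so the T-to-C rate of a transcript reports how much of it dates from the labelling. Each genotype and time point had 1 library, 16 in all, so no value below has a replicate of its own and the spread is taken from the time course. A lower rate later in the chase can come from loss of labelled RNA or from dilution by new RNA, and the 2 cannot be told apart here. Since the samples are bulk RNA, a shift in the cells present cannot be told apart from a change within cells either. For members of low read density a rate listed at 0 is common, and the depth of each library is unknown.

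Mediator is the large coactivator that links transcription factors bound at enhancers to RNA polymerase II at promoters. Its head and middle modules contact the polymerase, its tail receives activators, Med14 is the scaffold through all of them, and a separable kinase module holds Cdk8 or Cdk19 with cyclin C. RNA polymerase II transcribes the protein-coding genes of the nucleus, and several of its small subunits are also part of polymerases I and III. YBX1 is a cold-shock domain protein that binds mRNA.

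Several facts of the whole set of libraries bear on the values below. All 10 myeloid markers had a mean CPM of at least 1, from 33.6 to 783, against 1 of 5 erythroid, 1 of 5 lymphoid, 2 of 4 megakaryocyte and 1 of 5 stromal or endothelial markers. Among these Il7r reached 39.2 and Pf4 39.8. Mean CPM was deposited over all libraries together, so it cannot be compared between the genotypes. The Ybx1 transcript had a rate above 0 in every library, from 5.08 to 61.4% in WT and from 3.08 to 72.0% in YBX1-/-. A rate is not an amount, and the deleted part of the gene is not given, so this neither checks nor contradicts the genotype labels. In the YBX1-/- 0 h library 5 of 42 members were listed at 0 (Med14, Med18, Med23, Med31 and Polr2k), as were 10.8% of genes with a CPM of at least 1, against 0 members and 1.16% of genes in the WT 0 h library.

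In all 42 members the chosen interval lay in a 3' UTR of the GRCm38 annotation (GENCODE M21). Short words were counted on the transcript strand of these intervals, because GGACT is a common form of the consensus for N6-methyladenosine in mRNA, ATTTA is the core of AU-rich elements and AATAAA is the polyadenylation signal. GGACT was present in 19 of 29 Mediator intervals (65.5%) and 5 of 13 polymerase intervals (38.5%), against 64.7% of all intervals with a CPM of at least 1. The polymerase intervals were short, with a median of 321 bases against 854 for Mediator and 1166 for all genes. Per kilobase the density of GGACT was 1.05 in polymerase intervals, 1.18 in Mediator intervals and 0.961 in all. ATTTA was found in 65.5% of Mediator, 46.2% of polymerase and 69.6% of all intervals, and AATAAA in 82.8%, 69.2% and 82.1%. The first match is printed with its flanks for the 3 Mediator members of highest read density that hold GGACT, for the scaffold Med14, and for all 5 polymerase members that hold it. GGACT is in capitals, and each line is written 5' to 3' on the transcript strand, which is plus for Med28, Med10, Med8, Polr2c, Polr2h and Polr2i and minus for Med14, Polr2a and Polr2e. A match is a description of the letters and not evidence of a modified base.
Med28 (chr5:45525411-45525435): tgtgttggaaGGACTctgttggata
Med10 (chr13:69815806-69815830): tgatcttgtgGGACTcgggctgggg
Med8 (chr4:118415428-118415452): ctcttaagagGGACTctggcaggca
Med14 (chrX:12677466-12677490): aaaaggaaaaGGACTttttttaacc
Polr2a (chr11:69734208-69734232): atgctgtcttGGACTcactgaccca
Polr2c (chr8:94863628-94863652): cacggtggctGGACTtcaggcctcg
Polr2e (chr10:80036237-80036261): gcacatctgtGGACTccttctcggt
Polr2h (chr16:20721975-20721999): gatttgaggtGGACTccagagttta
Polr2i (chr7:30233327-30233351): ggccaccgctGGACTgagtgatcgt

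Exons of other genes covered part of 7 of these intervals. On the opposite strand these were Gm26819 over 97.6% of the Med10 interval, Zdhhc5 over 19.2% of Med19, Igfbp7 over 54.8% of Polr2b, Dok4 over 64.2% of Polr2c, Lrwd1 over 100% of Polr2j and Gm17435 over 41.1% of Med26. On the same strand Gm21986 covered 100% of the Med12 interval. The sources used here do not say if rates were computed by strand, so reads of these pairs cannot be told apart.

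Label was lost from Mediator and polymerase transcripts alike, and in WT the largest gap between the complexes was at 3 h of the chase, where polymerase transcripts kept more label. The WT Mediator median rate, listed here and for all courses in the order 0, 0.5, 1, 3, 6, 12, 18 and 24 h, was 43.2, 51.9, 45.8, 16, 8.85, 1.60, 0.956 and 0.602%. The WT polymerase median was 43.1, 47.9, 48.2, 25.8, 12.2, 1.28, 1.08 and 0.617%. The WT medians of the complexes were furthest apart at 3 h. In YBX1-/- the Mediator median was 33.3, 36.4, 29.9, 16.1, 3.77, 0.936, 1.19 and 0.696%. The YBX1-/- polymerase median was 27.8, 34.6, 28.6, 20.1, 4.22, 1.43, 0.820 and 0.826%. At 3 h, 11 of 13 polymerase members in WT and 10 of 13 in YBX1-/- lay above the Mediator median of the same library. The median of all genes with a CPM of at least 1 lay between the complexes at 3 h, at 17.4% in WT and 16.8% in YBX1-/-.

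**Figure D1:**
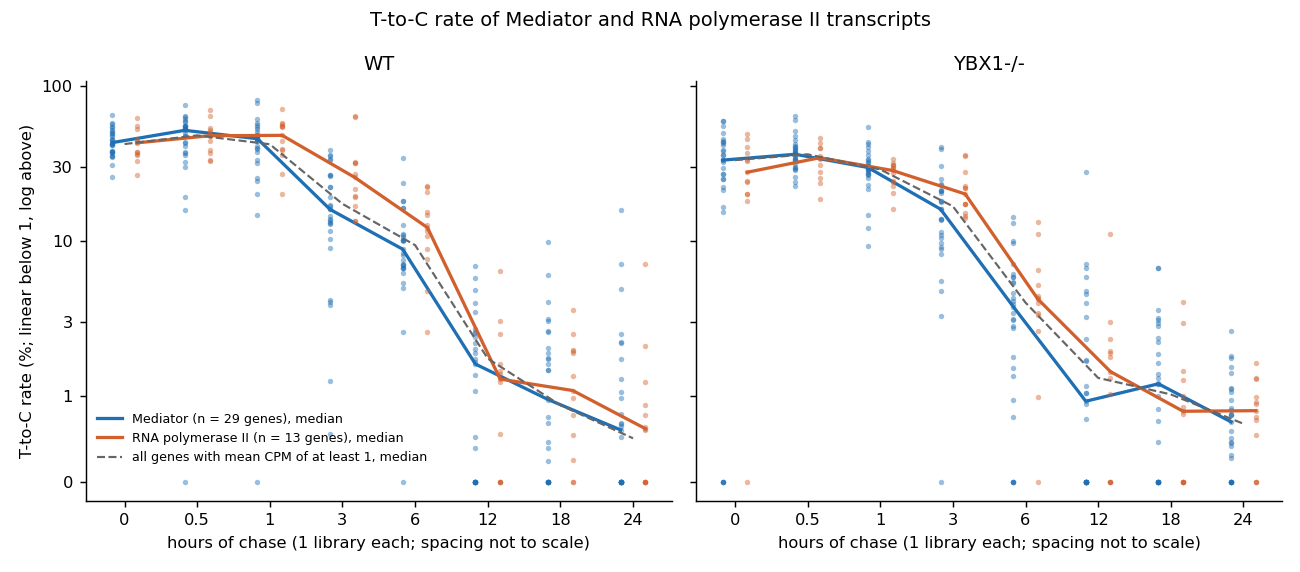
T-to-C rate in percent (vertical axis, linear below 1 and logarithmic above) against hours of chase (horizontal axis) in WT and YBX1-/-. Points are members, solid lines are medians of 29 Mediator and 13 RNA polymerase II members, and the dashed line is the median of all genes with a mean CPM of at least 1; the polymerase line lies above the Mediator line at 3 h in both genotypes (25.8 against 16% in WT).

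On the scale log2(rate in percent + 0.1), the Mediator median minus the polymerase median was -0.68 at 3 h in WT, -0.32 at 3 h in YBX1-/-, -0.46 at 6 h in WT and -0.16 at 6 h in YBX1-/-. In YBX1-/- the differences at 12 and 18 h were larger and of opposite sign, -0.56 and 0.49, at rates near 1%. Over all 16 libraries the mean difference was -0.08 with an SD of 0.32, and Mediator was lower in 9 of 16 libraries. These libraries differ in chase time and genotype, so the SD is not a spread of replicates. It cannot decide whether the complexes separate. The 3 h gap was smaller without the 5 subunits shared with polymerases I and III, at -0.37 in WT and -0.12 in YBX1-/-. Among members with a CPM of at least 5 it was -0.64 in WT and -0.04 in YBX1-/-. It was wider with the mean over members in place of the median, at -0.97 in WT and -0.75 in YBX1-/-. Without members overlapped by another gene it was -0.87 in WT and -0.21 in YBX1-/-. No test was made of the gap, since members are not replicates and each time point had 1 library per genotype.

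In WT the order of the half-lives of the complexes depended on the model fitted to the time course. An exponential fall to a constant floor, fitted to the complex medians, gave a WT half-life of 2.43 h for Mediator (1.60 to 2.97 h when each time point was left out in turn). For the WT polymerase it was 3.28 h (2.68 to 3.51 h). YBX1-/- gave 2.42 h (1.88 to 2.79 h) for Mediator and 3.12 h (2.41 to 3.96 h) for the polymerase. In this fit the polymerase had the longer half-life in both genotypes, also when each time point was left out in turn. The order was not tested. The fitted floor was 0 for both complexes in both genotypes. The SE of the half-life was 0.82 h for Mediator and 0.94 h for the polymerase in WT, and 0.53 and 1.1 h in YBX1-/-. With a straight line on the log2 scale, which weighs the late time points more, the WT values were 3.63 h for Mediator and 3.56 h for the polymerase, in the other order. In YBX1-/- the straight line gave 4.06 and 4.12 h.

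The fall of label in each member was tested by limma as the slope of log2(rate in percent + 0.1) on hours, for the 34 members with a rate above 0 in at least 12 of 16 libraries. Of the 42, the 8 not tested were Med16, Med18, Med23, Med25, Med26, Med29, Med31 and Polr2k. Label fell in 33 of 34 tested members in WT and in 33 of 34 in YBX1-/- (Benjamini-Hochberg adjusted p under 0.05 over 7411 genes), against 94.7% and 92.6% of all tested genes. The exceptions were Polr2l in WT (adjusted p = 0.0851, limma) and Med14 in YBX1-/- (adjusted p = 0.0875, limma). The median half-life along these lines was 3.78 h for 22 Mediator members and 3.41 h for 12 polymerase members in WT, and 4.11 and 3.83 h in YBX1-/-. All tested genes had medians of 3.71 and 4.04 h, so the WT medians of the complexes lay on either side of that of all tested genes.

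The catalytic core of the polymerase is formed by Polr2a, the largest subunit with the C-terminal heptad repeats, and Polr2b, which closes the active site. Polr2a (ENSMUSG00000005198, interval chr11:69733997-69734409) had WT rates of 44.3, 50.5, 55.2, 26.9, 12.2, 1.23, 1.08 and 0%. The YBX1-/- rates of Polr2a were 45.5, 28.1, 31.1, 14, 0.980, 1.96, 0 and 0%. The Polr2a rate was thus lower in YBX1-/- at 0.5, 1, 3, 6 and 18 h and higher at 0 and 12 h. Its half-life was 2.74 h in WT and 2.62 h in YBX1-/-, among the shorter of the members. Polr2b (ENSMUSG00000029250, chr5:77349170-77349324) had WT rates of 62.5, 47.6, 57.9, 16.8, 22.6, 0, 1.96 and 0%, and YBX1-/- rates of 33.3, 34.6, 29.5, 27.8, 0, 11.1, 2.94 and 0%. These values did not descend steadily: the 6 h rate in WT exceeded the 3 h rate, and in YBX1-/- the 12 h rate followed a 0 at 6 h.

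Polr2c and Polr2j form the pair on which polymerase assembly begins. Polr2j (ENSMUSG00000039771, chr5:136122778-136122947), the polymerase member of highest read density, whose interval Lrwd1 covers on the other strand, had WT rates of 37.5, 38.5, 36.2, 25.8, 7.61, 0.556, 0.545 and 0.597%. Its YBX1-/- rates were 27.8, 31.2, 22.8, 17.5, 4.28, 1.43, 1.27 and 0.545%, lower than WT up to 6 h and higher at 12 and 18 h. Its half-life was 3.45 h in WT and 4.17 h in YBX1-/-. Polr2c had half-lives of 4.73 and 3.30 h, the opposite order.

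Polr2d and Polr2g make the stalk, which extends from the core near the RNA exit. Polr2g (ENSMUSG00000071662, chr19:8793127-8793390) had WT rates of 43.5, 48.6, 54.6, 32.0, 14.6, 2.51, 2.52 and 0.617%, and YBX1-/- rates of 32.7, 34.6, 31.9, 22.8, 5.21, 3.01, 4.02 and 1.30%. The YBX1-/- rates were lower up to 6 h and higher from 12 h on. Polr2d had a half-life of 2.81 h in WT and 4.00 h in YBX1-/-. Polr2i, the jaw subunit used in RNA cleavage, had the lowest early label of the polymerase, with a mean over 0, 0.5 and 1 h of 28.8% in WT and 19.7% in YBX1-/-. Polr2m (ENSMUSG00000032199, chr9:71478437-71479396), also called Gdown1, binds the polymerase and makes its transcription depend on Mediator in vitro. Its WT rates were 36.7, 63.8, 48.2, 21.8, 11.5, 1.45, 0.254 and 0.777%, and its YBX1-/- rates were 40.8, 40.1, 33.7, 17.5, 4.22, 1.03, 0.994 and 0.749%.

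Polr2e, Polr2f, Polr2h, Polr2k and Polr2l are shared with polymerases I and III, and in WT 4 of these 5 kept the most label of the polymerase at 3 h. The rate at 3 h is given here as a percentage of the mean rate at 0, 0.5 and 1 h, for which the median of all genes with a CPM of at least 1 was 41.2% in WT (quartiles 21.3 and 61.0%) and 52.4% in YBX1-/-. Polr2e had WT rates of 33.1, 33.3, 39.2, 32.3, 8.88, 1.60, 0.781 and 0.637%, so 91.8% of its early rate remained at 3 h. In YBX1-/- the Polr2e rates were 24.3, 25.7, 24.2, 20.1, 6.54, 1.88, 0.820 and 0.907%, and 81.4% remained. Polr2f had WT rates of 37.8, 37.2, 38.8, 32.1, 15.3, 6.41, 0 and 1.22%, with 84.5% remaining. Its YBX1-/- rates were 18.2, 23.9, 30.9, 21.9, 13.2, 2.33, 1.44 and 1.28%, with 90.01% remaining. In WT the rates of both genes were lower by more from 3 to 6 h than from 1 to 3 h. In YBX1-/- this held for Polr2e, while Polr2f was lower by similar amounts over the 2 steps.

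Polr2k showed 98.4% of its early rate at 3 h in WT and 172% in YBX1-/-, and Polr2l showed 189 and 121%. These 2 had the lowest read density of the polymerase, with a mean CPM of 1.12 and 1.42. Polr2l had WT rates of 35.8, 44.4, 20.0, 63.2, 20.8, 0, 3.57 and 7.14%, and YBX1-/- rates of 20.0, 43.3, 24.4, 35.3, 3.45, 0, 0 and 0.980%, so single libraries moved it far. Polr2h was the exception among the shared subunits, with 38.0% in WT and 53.0% in YBX1-/-. The shared subunits had a median of 91.8% in WT and 90.01% in YBX1-/-, the other 8 polymerase members 45.4 and 66.5%, and Mediator 34.4 and 49.8%. In WT the 90th percentile of all genes was 79.8%, below Polr2e, Polr2f, Polr2k and Polr2l. In YBX1-/- it was 95.4%, above Polr2e and Polr2f. Of Mediator, Med12 and Med16 reached 107 and 110% in WT, and 29.3 and 96.2% in YBX1-/-, at a mean CPM of 2.15 and 2.73. These percentages rest on 1 library per genotype at 3 h. Along straight lines over the whole chase, the 4 tested shared subunits had a median half-life of 3.89 h in WT and 4.02 h in YBX1-/-. All tested genes had 3.71 and 4.04 h, so the slopes did not set the shared subunits apart as the 3 h rates did. Whether the shared subunits differ from other genes was not tested.

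**Figure D2:**
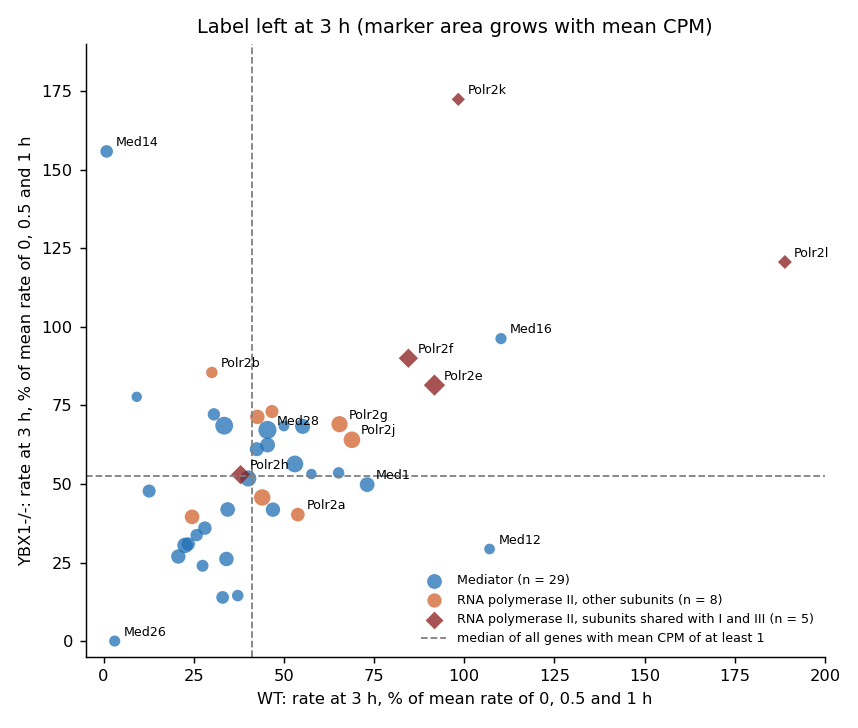
Rate at 3 h as a percentage of the mean rate at 0, 0.5 and 1 h, in WT (horizontal axis) and YBX1-/- (vertical axis), 1 marker per member with its area growing with mean CPM, and dashed lines at the medians of all genes (41.2 and 52.4%). Polr2e, Polr2f, Polr2k and Polr2l lie to the upper right and Polr2h lies near the dashed lines.

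In the Mediator head, which docks on the polymerase, Med17 and Med20 had the shortest WT half-lives of all tested members, 2.47 and 2.35 h. Med17 (ENSMUSG00000031935, chr9:15260351-15262226), the central head subunit, had WT rates of 57.8, 43.2, 40.1, 13.2, 12.7, 3.50, 0 and 0%, and YBX1-/- rates of 55.6, 51.6, 42.7, 17.9, 4.26, 0, 2.22 and 2.63%. Med20 (ENSMUSG00000092558, chr17:47623101-47624418) had WT rates of 37.6, 64.1, 47.0, 17.1, 9.95, 0.524, 0 and 0%, and YBX1-/- rates of 32.4, 36.2, 30.7, 13.9, 0.755, 0, 1.63 and 0.506%. Both were listed at 0 at 18 and 24 h in WT and above 0 at those times in YBX1-/-. Their half-lives in YBX1-/- were 4.34 and 3.80 h. These half-lives are along straight lines on the log2 scale, which take in the late rates of 0. At 3 h in WT, 28.1% of the early rate remained for Med17 and 34.4% for Med20, against a Mediator median of 34.4%.

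Med8 (ENSMUSG00000006392, chr4:118414789-118415782), which anchors Med18 and Med20 in the head, was the tested member with the smallest p for a difference in label level. Its WT rates were 42.6, 53.0, 56.0, 26.8, 10.1, 2.7, 1.62 and 0.973%, and its YBX1-/- rates were 16.7, 37.0, 31.9, 16.1, 2.72, 1.04, 1.19 and 0.772%. Med8 was lower in YBX1-/- at 8 of 8 time points. The other head members were Med6, Med11, Med18, Med19 and Med22, and the median rate of the 8 head members at 3 h was 14.8% in WT and 17.01% in YBX1-/-.

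The middle module, which joins head and tail, holds Med1, the subunit that binds nuclear receptors. Med1 (ENSMUSG00000018160, chr11:98152155-98155240) had WT rates of 45, 55.7, 46.4, 35.8, 6.65, 0.394, 2.04 and 0%, and YBX1-/- rates of 22.5, 31.4, 30.4, 14, 2.83, 1.04, 0.709 and 1.52%. At 3 h 73.1% of its early rate remained in WT, above the upper quartile of all genes, and 49.8% in YBX1-/-. Med21 (ENSMUSG00000030291, chr6:146650288-146650602), part of the hinge of the middle module, had WT rates of 54.7, 58.9, 53.0, 22.3, 8.38, 1.60, 0.684 and 0.524%, and YBX1-/- rates of 39.0, 44.9, 38.4, 21.1, 6.11, 2.33, 3.17 and 1.07%. On the linear scale Med21 was lower in YBX1-/- up to 6 h and higher from 12 h on.

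Med10 (ENSMUSG00000021598, chr13:69815690-69816104), also of the middle module and nearly all covered by Gm26819 on the other strand, had WT rates of 49.6, 52.8, 48.7, 16.8, 10.9, 2.60, 2.64 and 1.28%, and YBX1-/- rates of 38.4, 37.7, 33.3, 25, 3.93, 1.70, 1.30 and 0.772%. Med10 was higher in YBX1-/- at 3 h and lower at the other 7 times. Med4 (ENSMUSG00000022109, chr14:73518067-73518545) had WT rates of 31.1, 43.8, 48.0, 14, 7.14, 1.90, 0.467 and 2.21%, and YBX1-/- rates of 36.2, 37.2, 21.8, 8.30, 0.946, 0, 0.459 and 0.455%. Med26 (ENSMUSG00000045248, chr8:72494561-72495486), which bridges Mediator to elongation factors, had WT rates of 65.3, 41.2, 14.8, 1.25, 5.36, 0, 0 and 0%, and YBX1-/- rates of 15.4, 34.0, 9.26, 0, 5.41, 0, 2.94 and 0.833%. It was the middle member with the lowest 3 h rate in both genotypes, at a mean CPM of 2.62, and was not tested. Med7, Med9 and Med31 complete the module.

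Med14 (ENSMUSG00000064127, chrX:12675369-12677577), the scaffold, had WT rates of 50.0, 63.0, 81.4, 0.559, 18.1, 1.65, 1.46 and 0%. In YBX1-/- its rates were 0, 42.1, 33.9, 39.5, 9.76, 0, 0 and 1.1%. Single libraries stood out in both courses, the 3 h library in WT and the 0 h library in YBX1-/-. Without the YBX1-/- 0 h library, label loss passed the test in 34 of 34 members of that genotype, Med14 included.

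Of the tail, which receives activators, Med15 and Med24 were tested and Med16, Med23 and Med25 were not. Med24 (ENSMUSG00000017210, chr11:98704591-98704899) had WT rates of 43.2, 47.5, 24.3, 9, 10.6, 2.20, 4.04 and 1.72%, and YBX1-/- rates of 33.3, 34.1, 27.3, 9.76, 4.62, 7.06, 1.19 and 1.40%. Its half-life of 5.55 h in WT was the longest among members that passed the test there, and it was 5.17 h in YBX1-/-. The WT rate was already 9% at 3 h, and rates were above 1% at 18 and 24 h. Of Med27, Med28, Med29 and Med30, which are placed between head and tail, Med28 (ENSMUSG00000015804, chr5:45525176-45525637) had the highest read density of all members. Its WT rates were 45.2, 53.9, 48.7, 22.4, 11, 2.55, 0.956 and 0.668%, and its YBX1-/- rates were 29.6, 33.4, 30.4, 20.9, 5.37, 0.936, 0.993 and 0.950%. Med27 (ENSMUSG00000026799, chr2:29524502-29524793) had WT rates of 38.4, 50.0, 61.9, 12.9, 5, 0, 1.47 and 0%, and YBX1-/- rates of 27.3, 28.8, 23.0, 8.89, 3.12, 5.88, 1.2 and 1.82%. Med30 had the highest early label of the 42 members, with a mean over 0, 0.5 and 1 h of 70.4% in WT and 59.6% in YBX1-/-.

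In the kinase module Med12 activates the kinase and Med13 links the module to the core. Med12 (ENSMUSG00000079487, chrX:101297231-101297465) had WT rates of 25.9, 32.7, 50.7, 39.0, 10.1, 6.90, 0 and 15.8%, and YBX1-/- rates of 42.9, 36.4, 28.6, 10.5, 13.0, 0, 0 and 0%. The WT course was at 0 at 18 h and at 15.8% at 24 h, and the YBX1-/- course was at 0 from 12 h on, at a mean CPM of 2.15 and with Gm21986 over the whole interval. Med13 (ENSMUSG00000034297, chr11:86267033-86270985) had WT rates of 47.9, 55.7, 44.6, 10.2, 8.85, 1.72, 0.392 and 4.90%, and YBX1-/- rates of 50.0, 47.9, 29.1, 11.4, 5.84, 4.55, 2.82 and 1.12%. Its paralog Med13l had half-lives of 3.91 and 4.78 h, and Med13 had 4.71 and 4.89 h.

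**Figure D3:**
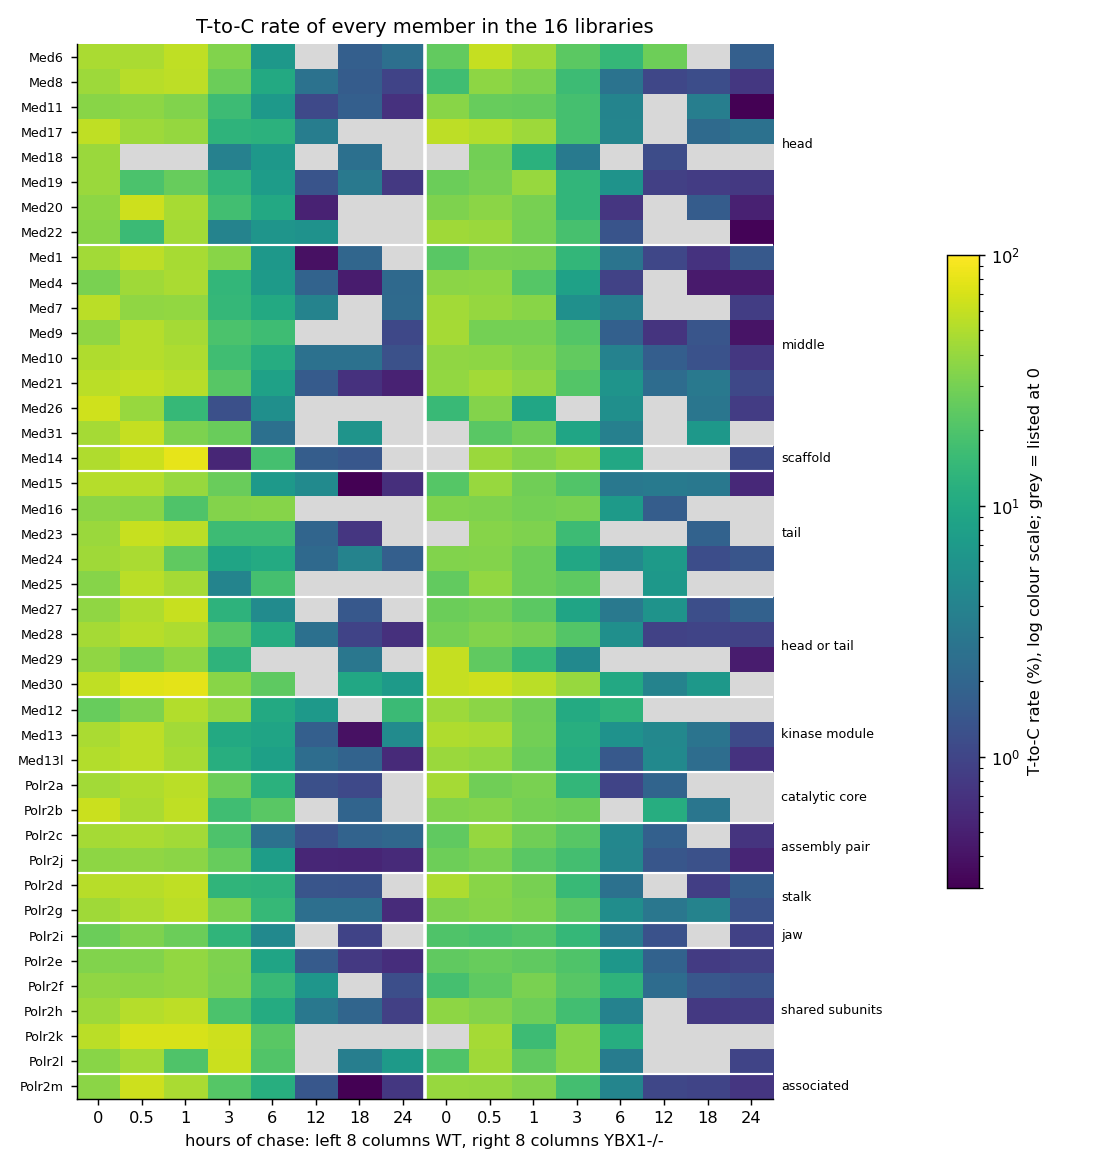
T-to-C rate in percent (logarithmic colour scale, grey for a rate listed at 0) of each of the 42 members (rows, grouped by module or subunit class) in 8 WT and 8 YBX1-/- libraries (columns, by hours of chase). Grey cells gather at 12, 18 and 24 h and in rows of low read density such as Med18 and Polr2k.

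Between the genotypes, most members had a lower rate in YBX1-/- up to 6 h, and so did most genes. The rate at 0 h was lower in YBX1-/- in 32 of 42 members (21 of Mediator and 11 of the polymerase), against 72.9% of all genes with a CPM of at least 1. At 0.5 h it was lower in 35 members, against 80.6% of genes, and at 1 h in 36, against 81.8%. At 3 h the count was 26, against 54.2% of genes, and at 6 h it was 36, against 81% of genes. At 12, 18 and 24 h it was 18, 18 and 17 members, against 47%, 35.9% and 40.5% of genes. All 13 polymerase members were lower at 0.5 h, and 12 of 13 were lower at 1 h and at 6 h. In Mediator the counts at these times were 22, 24 and 24 of 29. The median difference at 6 h on the log2 scale, YBX1-/- minus WT, was -1.2 for Mediator, -1.41 for the polymerase and -0.99 for all genes. The members' shares stayed near those of all genes, and with 1 library per point a genotype and a library cannot be told apart.

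Differences between the genotypes were tested on values centred on the median of each library, so that a member was compared with the typical gene. Centring removes only a shift common to all genes, and a library's effect on single genes still cannot be told apart from genotype. No member passed the test for a difference in decay rate (0 of 34 at an adjusted p under 0.05 by limma, against 0.108% of all tested genes). At an unadjusted p under 0.05 there were 4 of 34, against 12.5% of genes. The 4 were Med21, Polr2g, Med12 and Polr2l. Med21 had a slope difference, YBX1-/- minus WT, of 0.06 per h (SE 0.021, limma adjusted p = 0.254) and Polr2g of 0.05 per h (SE 0.018, limma adjusted p = 0.267), the direction of slower loss in YBX1-/-. Med12 had a slope difference of -0.25 per h (SE 0.092, limma adjusted p = 0.284) and Polr2l of -0.16 per h (SE 0.061, limma adjusted p = 0.295), the direction of faster loss in YBX1-/-. Med27, at 0.18 per h, and Med10, at -0.04 per h, were next in the 2 directions. Over the 34 members 19 differences were positive and 15 negative, with a median of 0.018 per h against 0.0037 for all genes.

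No member passed the test for label level either (0 of 34 by limma, against 0% of all genes; at an unadjusted p under 0.05, 1 of 34 against 5.6%). The 1 was Med8, with a level of -0.56 on the log2 scale in YBX1-/- relative to WT (SE 0.20, limma adjusted p = 0.779). Med21 had the smallest p in the other direction, with 0.55 (SE 0.25, limma adjusted p = 0.779) and a higher centred value at 7 of 8 time points. Next were Med4 at -1.04, Polr2l at -1.14, Med27 at 1.1 and Med13 at 0.43, each with a limma adjusted p of at least 0.779. Centring decided the balance of signs: 20 members were higher and 14 lower in YBX1-/- with it, and 7 and 27 without it, where the median of all tested genes was itself -0.34. In both scalings Med8, Med4 and Polr2l were lower and Med21, Med27 and Med13 higher in YBX1-/-.

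**Figure D4:**
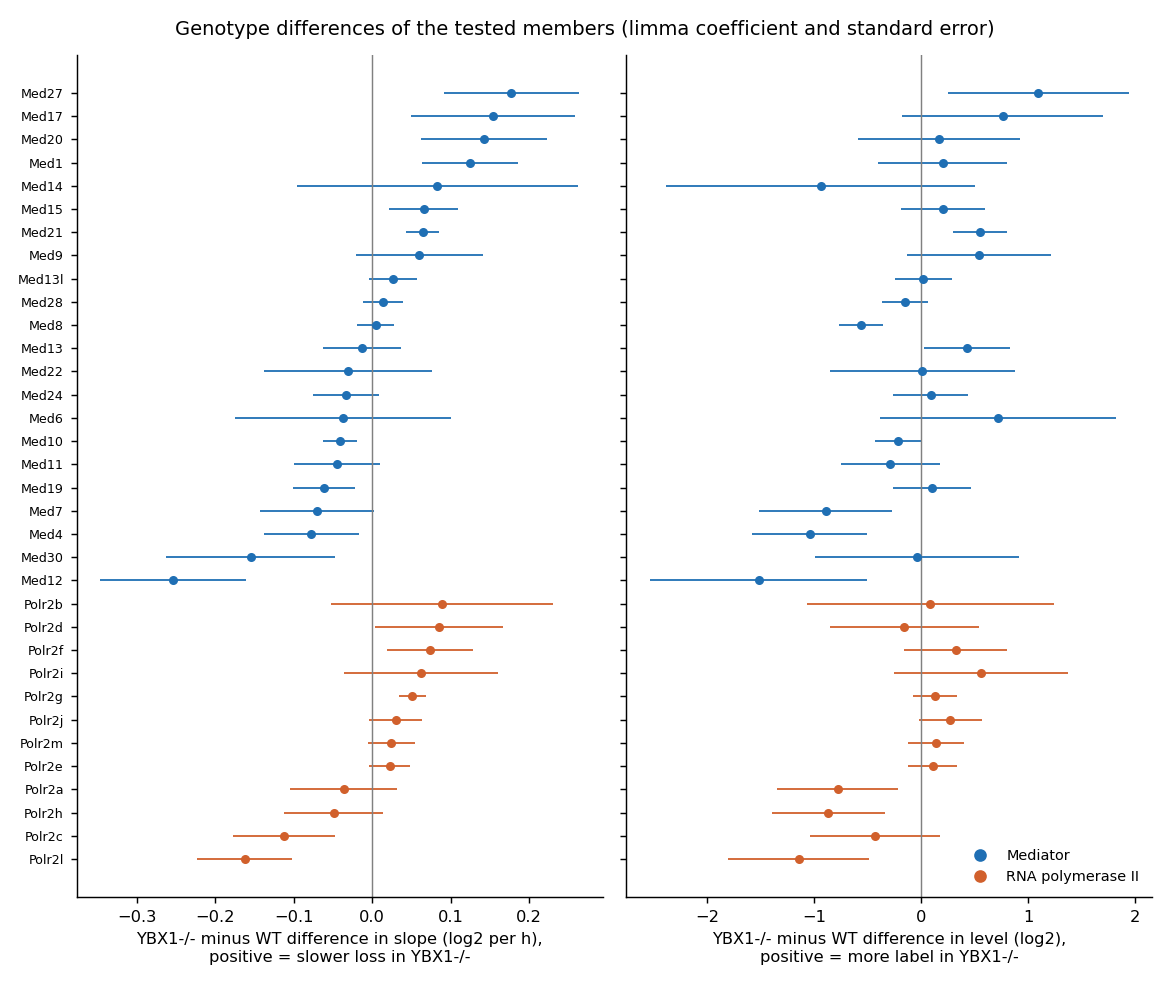
Difference between YBX1-/- and WT in slope (left, log2 per h) and in level (right, log2) for the 34 tested members after centring on the library median; points are limma coefficients and bars are standard errors. Values lie on both sides of 0 in each complex, and no member passed an adjusted p of 0.05.

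Calls changed with the time window. Over 0 to 12 h, 2 of 34 members differed in decay rate by limma, Med6 (0.70 per h, adjusted p = 0.0447) and Med17 (-0.44 per h, adjusted p = 0.0463), against 3.62% of all tested genes. Without the 12 h time point 1 of 34 did, Med17 (0.21 per h, limma adjusted p = 0.0381), in the opposite direction, against 2.75% of genes. Med6, named here because of this call, had YBX1-/- rates of 14.3% at 6 h and 27.8% at 12 h against 6.67 and 0% in WT.

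The 21 tested members with GGACT in the interval had a median slope difference between the genotypes of 0.0045 per h, and the 13 without it 0.030 per h. Over all tested genes the medians were 0.0023 per h for 4733 with GGACT and 0.0063 per h for 2614 without. The median level difference was 0.088 both in tested members with GGACT and in those without. Over all tested genes it was -0.0017 with GGACT and 0.032 without. Of the 9 members whose sequences are printed, Med28, Med10, Med8, Med14, Polr2a, Polr2c and Polr2h had negative level differences. Polr2e and Polr2i had positive ones, and none of the 9 passed the test. The printed members do not stand for all tested members with GGACT. Of those not printed, Med7 had a negative level difference. Med1, Med6, Med9, Med13, Med13l, Med15, Med17, Med19, Med20, Med22 and Med24 had positive ones. Over all tested genes 3651 of 7411 level differences were negative.

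The amount of label before the fall varied with the share of T bases in the interval. Rates over 0, 0.5 and 1 h in WT ran from 28.8% in Polr2i to 65.4% in Polr2k within the polymerase, whose intervals held 27.7 and 40.6% T. For WT early rate against T share, Pearson's r and Spearman's rho were 0.77 and 0.79 across the 13 polymerase members. They were 0.31 and 0.42 across the 29 Mediator members, and 0.46 and 0.54 across all 42 members. All 9628 genes had 0.45 and 0.51. In YBX1-/- the values were 0.16 and 0.41 for the polymerase and 0.06 and 0.05 for Mediator. For the 42 members they were 0.08 and 0.16, and for all genes 0.38 and 0.42. Among the 28 members with a CPM of at least 5 they were 0.64 and 0.61 in WT and 0.38 and 0.46 in YBX1-/-. These are descriptions across genes, which share libraries and are not independent replicates. The median T share was 29.6% in each complex and 29.0% in all genes.

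**Figure D5:**
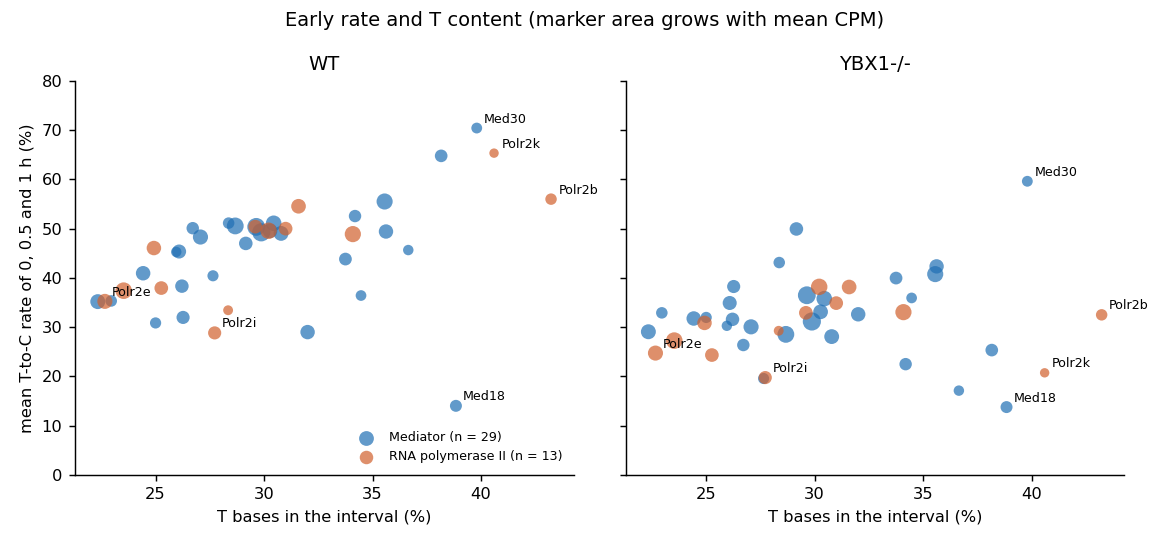
Mean T-to-C rate over 0, 0.5 and 1 h in percent (vertical axis) against the share of T bases in the interval in percent (horizontal axis), in WT and YBX1-/-, 1 marker per member with its area growing with mean CPM. In WT the polymerase markers rise with T share from Polr2e (22.7% T) to Polr2k and Polr2b, and in YBX1-/- Polr2k and Polr2b lie at 20.7 and 32.5%.

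Label was also lost from most other genes of the transcription machinery, taken from lists drawn up with earlier results of these data known. Of 24 tested general transcription factors, which assemble the preinitiation complex, label fell in 23 in WT (95.8%) and 21 in YBX1-/- (87.5%) by limma, against 94.7% and 92.6% of all tested genes. The TFIID subunit Taf13 and the TFIIH subunit Gtf2h5 had the smallest p for a slope difference, 0.13 and -0.05 per h, with limma adjusted p-values of 0.282 and 0.398. Of 21 tested pausing and elongation genes it fell in 20 (95.2%) and 21 (100%), of 7 tested genes of polymerase II assembly and C-terminal domain kinases or phosphatases in 7 (100%) and 6 (85.7%), and of 13 tested subunits of polymerases I and III in 12 (92.3%) in each genotype. No gene of these lists differed between the genotypes in decay rate or level at an adjusted p under 0.05. In the pausing and elongation list 16 of 21 slope and 17 of 21 level differences were negative, against 3524 and 3651 of 7411 genes. Its median slope difference was -0.07 per h. Its smallest p in the negative direction was Ell, an elongation factor at a mean CPM of 2.45, with -0.24 per h (SE 0.069, limma adjusted p = 0.188). Supt6, a histone chaperone, had 0.20 per h (limma adjusted p = 0.258). For general transcription factors 10 of 24 slope and 11 of 24 level differences were negative. For polymerases I and III they were 7 and 6 of 13, and for polymerase II assembly and C-terminal domain genes 3 and 2 of 7. No list was tested as a set.

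The paralogous kinases Cdk12 and Cdk13, which phosphorylate the C-terminal domain, had slope differences of opposite sign, -0.19 and 0.22 per h, both with a limma adjusted p of 0.178. Cdk12 was at 0 from 12 h on in YBX1-/-, and Cdk13 had 8.33, 5.56 and 7.32% there. Polr1d, shared by polymerases I and III, had a slope difference of 0.16 per h (SE 0.038, limma adjusted p = 0.152), and Polr3b, of the polymerase III core, had 0.15 per h (limma adjusted p = 0.234). Of the kinase partners of Mediator, label fell in Cdk19 in both genotypes and in neither for Ccnc, cyclin C (limma adjusted p = 0.108 in WT and 0.676 in YBX1-/-), and Cdk8 was not tested. Early label was low in Ccnc, with WT rates of 3.81, 0, 0, 7.33, 6.81, 2.27, 3.12 and 6.32% and YBX1-/- rates of 22.2, 6.72, 9.42, 8.57, 4.80, 5.97, 3.49 and 9.76%.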

How the data were processed

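Mouse leukemia cells of 2 genotypes were profiled by SLAM-seq at 8 time points, 1 library each. The deposited table gave T-to-C rates as a fraction per interval and library, whose denominator is not stated. It also gave the authors' mean CPM, T content and coverage on Ts over all libraries, per the file headers. The submitters' processing notes name CASAVA, HISAT2 2.1.0 and GRCh38, a human build. Intervals here matched GRCm38 instead: their T count equalled that of the GENCODE M21 sequence in 9606 of 9606 intervals with sequence. Library depth is unknown, so no counting interval is given.

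Of 86993 intervals, the interval of highest mean CPM was used per gene, and 21148 of 21177 gene identifiers matched a symbol. Rates in percent were analysed as log2(rate + 0.1) with limma 3.58.1 (R 4.3.3, trend) for 7411 genes with a rate above 0 in at least 12 of 16 libraries, with Benjamini-Hochberg adjustment over all of them. Slopes had 12 residual degrees of freedom. The decay difference is the genotype by hours term, with 6, and the level difference the genotype term, both on values centred on the library median, with time points entering as a factor. Half-lives of complex medians used scipy 1.17.1.

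Members and lists were chosen with earlier results of these data known. Values in every library were given for Polr2a, Polr2b, Med14, Med1, Med12, Med13 and Med26, the 3 members of each complex with the highest mean CPM, the 3 with the smallest p in each direction of both genotype comparisons, and the 3 shortest and longest WT half-lives; Polr2e and Polr2f were added after their values were seen. In lists of other genes the 2 with the smallest p were named. On simulated data for 7411 genes the decay fit recovered 40 of 100 differences of 0.2 per h and 75 of 100 of 0.4. The level fit recovered 34 of 100 differences of 2 and 81 of 100 of 4 on the log2 scale. There were 14 false calls in the decay fit and 6 in the level fit. Simulated errors were independent and normal, unlike the real rates, many of which were 0.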

Additional observations from a re-analysis of the deposited data

How the results depend on the processing

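With 1 library per genotype and time point, a single library can move a member. Label loss passed the test in 13 members in WT and 13 in YBX1-/- when only the 13 with a rate above 0 in all 16 libraries were tested, and in 0 of 34 in each when values were centred on the library median, which removes the common fall by construction. The count of members differing in decay rate was 2 over 0 to 12 h and ranged from 0 to 1 when each time point was left out. Med17 went from 0.15 per h to -0.44 per h over 0 to 12 h, and the cause was not tested. The Mediator half-life with a straight line was 3.63 h in WT and 4.06 h in YBX1-/-. With the exponential fit it was 2.43 and 2.42 h. That fit ranged from 1.60 to 2.97 h in WT and from 1.88 to 2.79 h in YBX1-/- without each time point. The Mediator minus polymerase difference at 6 h in YBX1-/- became 0.0092 without the shared subunits. Over the alternatives the difference over 16 libraries ran from -0.22 (mean over members) to -0.001 (tested members only). The time point pairs the libraries by label, and with no replicate block, hours entered as a line, 0 members differed in decay rate and 0 in level, as with it. For 19 members named by the rule, 282 of 332 alternative slope differences stayed within 1 SE, and 308 of 332 level differences. The setting without members overlapped by another gene, and the 3 h and 6 h settings, were chosen after the data were seen.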

Other observations

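Genes outside the complexes whose 16 centred values were most like the mean of the tested members were sought over 7377 genes by Pearson r. For Mediator these were Rbm7 (0.93), Ammecr1 (0.92), Txnl4b (0.89), Bcl2l1 (0.88) and Rab3il1 (0.88). For the polymerase they were Uhrf1 (0.93), Tmx2 (0.91), Arfip2 (0.91), Dhrs11 (0.91) and Rnf7 (0.89). The means of the 2 complexes had an r of 0.62 with each other. These are the highest of many values over 16 shared libraries, and describe these libraries only.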
